A study of Mus musculus with 17 samples.

Results

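The constitutive proteasome genes are the genes of the standard proteasome, a barrel-shaped protease, and of the regulatory particle that caps it. They were taken as every gene whose symbol is Psma, Psmb, Psmc or Psmd followed by a number, without the inducible subunits Psmb8, Psmb9 and Psmb10. This gave 36 genes of the 19938 genes with a feature of their own on the array. They comprised 7 alpha ring subunits, 3 catalytic and 4 other beta ring subunits, 6 ATPases, 11 non-ATPase subunits and 3 assembly chaperones of the regulatory particle, and a pair of core subunits restricted to other tissues (Psma8 and Psmb11).

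The study asked what makes myeloid-derived suppressor cells more suppressive while a tumour grows. Female BALB/c mice had no tumour (naive), or had received 100000 cells of Her-2/CT26, a colon carcinoma line carrying Her-2, subcutaneously 3 or 6 weeks earlier. CD11b+ cells of pooled spleens were enriched on magnetic beads and sorted into a monocytic subset (Mo, with much Ly-6C and little Ly-6G) and a polymorphonuclear subset (PMN, with the opposite pattern). The labels do not give the ages of the mice, and they do not say whether arrays of a group came from separate pools, so p-values measure the spread between arrays, which may be technical. There were 3 Mo arrays each for naive mice, 3 weeks and 6 weeks, and 4, 2 and 2 PMN arrays. Both tumour stages come from 1 transplanted cell line in 1 strain.

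Proteins marked with ubiquitin are recognised by the regulatory particle, unfolded by its ring of ATPases and threaded between the alpha rings into the chamber of the core, where catalytic beta subunits cut them. Cells that make and turn over much protein, dividing cells among them, depend on this degradation, and immune cells can replace the catalytic subunits by inducible ones that favour peptides for MHC class I. Transcription of the standard subunits is known to be raised together through antioxidant response elements, which bind NRF1 (Nfe2l1) and NRF2 (Nfe2l2), and many of their promoters hold CCAAT boxes and ETS sites.

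Promoter sequence was listed for 29 of the 36 genes in RefSeq on GRCm38.p6. The 250 bases before each listed start were searched on both strands for those 3 motifs. Bases inside the annotated gene were searched but are not printed, which leaves 249 bases for Psmc6. The 5 windows printed here were picked because Psmb5, Psmc6 and Psmd12 held the core of the antioxidant response element, and Psma6 and Psmd14 had the largest changes at 6 weeks in PMN and in Mo cells. Capitals mark the matches, which are TGACNNNGC for the response element core, CCGGAAG for the ETS core and CCAAT for the CCAAT box, each on either strand.
Psmb5, chr14:54617996-54618245, minus strand: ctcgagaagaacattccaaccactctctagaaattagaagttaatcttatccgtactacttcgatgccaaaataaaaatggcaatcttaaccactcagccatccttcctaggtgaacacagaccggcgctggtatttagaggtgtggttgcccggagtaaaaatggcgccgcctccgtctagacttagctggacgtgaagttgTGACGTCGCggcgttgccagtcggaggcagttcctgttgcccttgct
Psmc6, chr14:45329574-45329822, plus strand: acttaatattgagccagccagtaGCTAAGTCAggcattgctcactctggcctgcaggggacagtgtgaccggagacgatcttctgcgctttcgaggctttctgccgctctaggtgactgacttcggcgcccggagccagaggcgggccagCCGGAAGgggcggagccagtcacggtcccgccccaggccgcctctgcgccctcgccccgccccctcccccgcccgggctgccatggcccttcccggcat
Psmd12, chr11:107479278-107479527, plus strand: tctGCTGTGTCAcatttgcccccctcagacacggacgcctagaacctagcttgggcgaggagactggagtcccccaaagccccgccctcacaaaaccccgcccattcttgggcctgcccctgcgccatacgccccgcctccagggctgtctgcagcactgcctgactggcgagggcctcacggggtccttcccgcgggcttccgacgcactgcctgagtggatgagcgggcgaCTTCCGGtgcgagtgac
Psma6, chr12:55383972-55384221, plus strand: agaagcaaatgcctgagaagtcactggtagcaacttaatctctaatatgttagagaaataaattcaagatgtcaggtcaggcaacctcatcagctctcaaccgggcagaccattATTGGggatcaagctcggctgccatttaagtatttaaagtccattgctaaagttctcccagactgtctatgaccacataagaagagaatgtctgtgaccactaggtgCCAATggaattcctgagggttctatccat
Psmd14, chr2:61711444-61711693, plus strand: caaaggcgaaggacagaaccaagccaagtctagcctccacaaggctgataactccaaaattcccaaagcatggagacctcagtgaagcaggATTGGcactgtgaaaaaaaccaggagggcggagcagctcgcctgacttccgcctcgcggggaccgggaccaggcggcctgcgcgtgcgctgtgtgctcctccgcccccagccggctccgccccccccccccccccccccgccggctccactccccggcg
The match of the response element core ended 38 bases before the start in Psmb5, 217 bases before it in Psmc6 and 238 bases before it in Psmd12. It was found in 5 of the 29 promoters (17.2%), against 10.1% of all 27025 listed promoters. Psmb6 and Psmd9 held it too, and their windows are not printed. The Psmd9 match ended 22 bases before the start, and the Psmb6 match reached into the annotated gene. The ETS core was found in 8 of the 29 (27.6%), against 7.07% of all promoters, and the CCAAT box in 12 of the 29 (41.4%), against 34.5%. No match of a motif overlapped a match of another motif in these 29 windows. A match is a run of letters and a description only.

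The median intensity of an array was 95.3 to 114 for Mo cells and 81.0 to 95.9 for PMN cells. Levels below are log2 intensities, changes are differences of them with the standard error (SE) of a linear model over all 17 arrays (limma), and a gene passed at a Benjamini-Hochberg adjusted p below 0.05 over all 19938 genes. No test was made between Mo and PMN levels, since the deposited subsets appear to have been normalized apart. The 4 measured monocyte markers summed to intensities of 8200 to 13190 in Mo arrays and 1233 to 1878 in PMN arrays, and the 8 neutrophil markers to 2064 to 15520 in Mo arrays and 28060 to 58850 in PMN arrays. Ccr2 was the most selective of the monocyte markers (12.06 to 12.45 in Mo and 6.07 to 6.78 in PMN arrays), and Csf1r was also bright in PMN arrays (11.28 to 12.11 in Mo and 9.68 to 10.47 in PMN arrays). All 34 widely expressed proteasome genes averaged 8.07 or more in Mo cells, and 6.34 or more in PMN cells. As a measure of background, the 1194 receptor genes of smell and of the vomeronasal organ (symbols Olfr and Vmn), not known to be used in blood cells, had a median of 5.24 in Mo and 5.30 in PMN cells. All 34 genes lay above the 95th percentile of those receptor genes in Mo cells, and 25 of the 34 did in PMN cells. By stage, 22 of the 34 PMN means were above it in naive cells, 23 at 3 weeks and 33 at 6 weeks, so 12 PMN changes were measured against naive levels within the range of the unused genes.

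Nearly the whole set was higher in tumour-bearing mice at 6 weeks, in both subsets, and the stages in between differed. In Mo cells at 6 weeks, 33 of the 36 genes rose against naive cells and 1 fell, with a median change of 0.87, where 21.8% of all genes rose, 24.4% fell and the median gene changed by -0.09. In PMN cells at 6 weeks, 32 of the 36 rose and 1 fell, with a median change of 1.04, where 25.5% of all genes rose, 40% fell and the median gene changed by -0.18. At 3 weeks, 26 genes rose in Mo cells and none fell, with a median change of 0.60 and a background of 5.2% of all genes higher and 0.833% lower. No proteasome gene passed in PMN cells at 3 weeks, with a median change of 0.05; in limma 0 of all genes rose (0%) and 0 fell, and 374 genes, none of them a proteasome gene, had an unadjusted p below 0.05. Between 3 and 6 weeks, 2 genes rose further in Mo cells (Psmd1 and Psmd14, background 4.38% higher and 3.13% lower), whereas 31 rose and 2 fell in PMN cells (background 23.7% higher and 34.9% lower), with a median change of 1.01. For the widely expressed genes, the change at 3 weeks was, in the median, 67.9% of that at 6 weeks in Mo cells and 4.75% in PMN cells; both changes of a subset share the naive arrays.

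**Figure D1:**
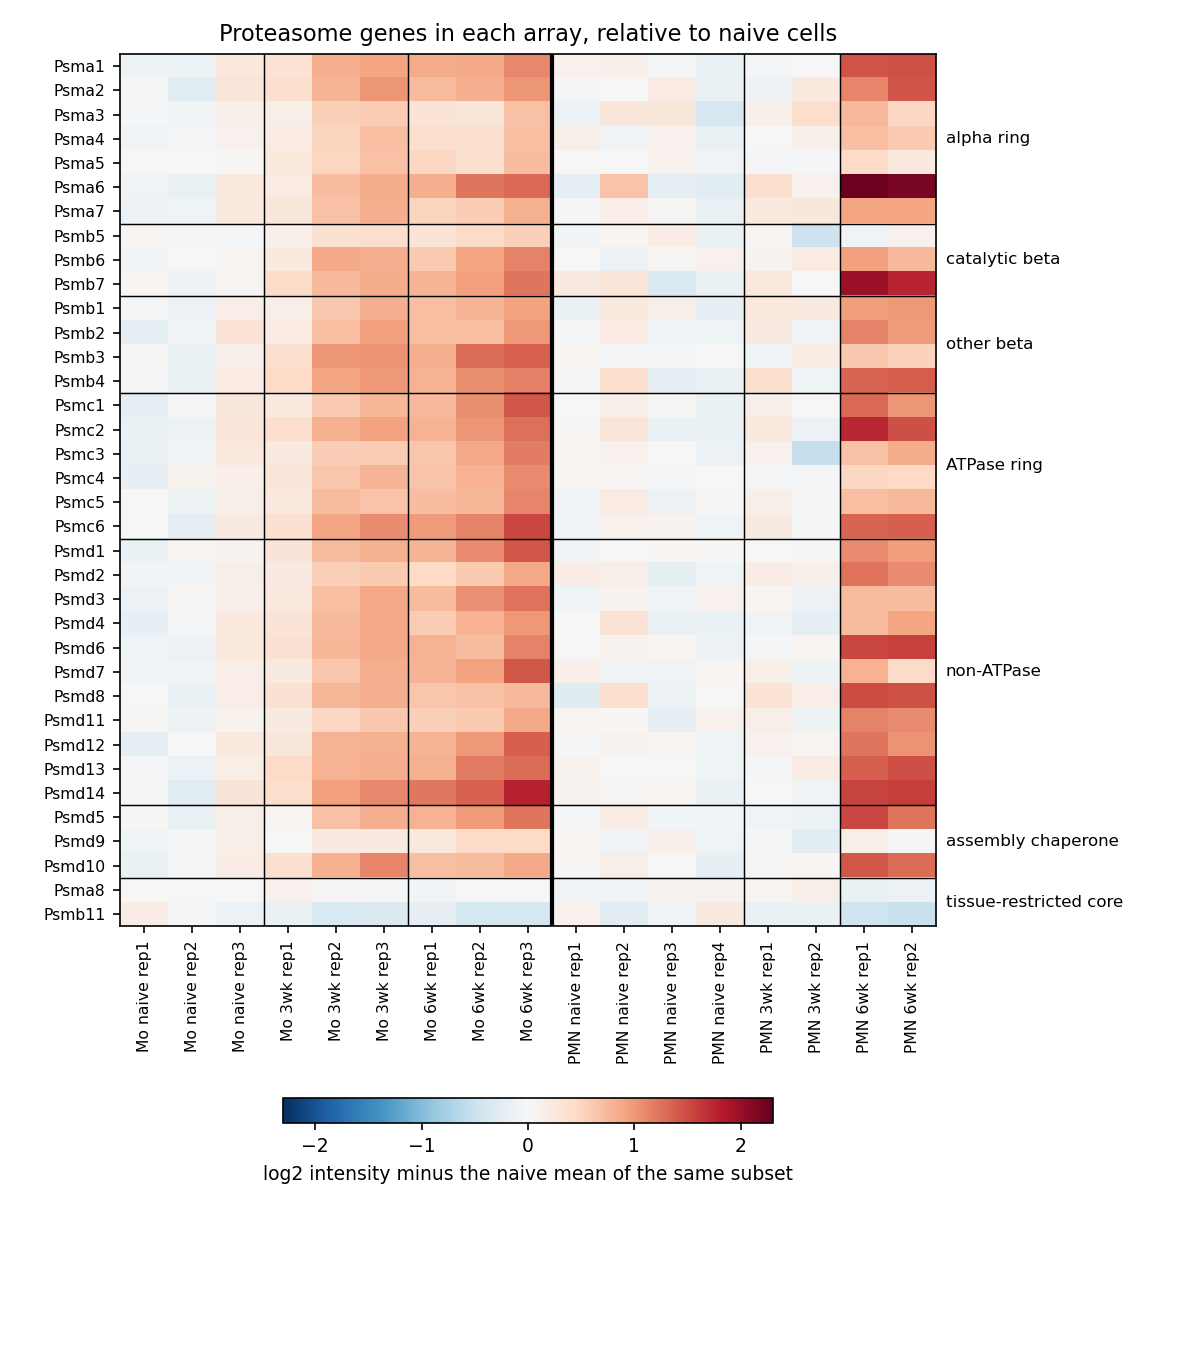
Heat map of the 36 proteasome genes (rows, grouped by role) in the 17 arrays (columns, by subset and stage), coloured by log2 intensity minus the naive mean of the same subset. The Mo arrays at 3 and 6 weeks are mostly red, the PMN arrays at 3 weeks are close to the naive ones, and both PMN arrays at 6 weeks are red for all but a few genes, with Psma6 the darkest at 2.26 and 2.19.

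Bright genes as a class were also higher at 6 weeks, which bears on how these counts are read. Genes with a mean log2 intensity of 8 or more in a subset had a median change of 0.32 in Mo cells at 6 weeks and 0.69 in PMN cells at 6 weeks, and 49.9% and 71.7% of them rose. Of the bright genes, 15% rose in Mo cells at 3 weeks and 68.6% in PMN cells between 3 and 6 weeks. When the bright genes were chosen on naive arrays only, the medians were 0.27 in Mo and 0.58 in PMN cells, and when chosen on 6-week arrays only, 0.36 and 0.84. In Mo cells all 34 widely expressed proteasome genes were bright, 33 rose, and their median change was 0.89. In PMN cells 10 of the 34 were bright, of which 9 rose with a median of 1.14. The other 24 PMN genes lay from 6 to below 8, a range in which 24.6% of all genes rose and the median gene changed by -0.24; 23 of these 24 rose, with a median of 1.04. With each array centred on its bright genes, an alternative chosen after seeing the data, as were the brightness ranges, the counts became 29 higher and 2 lower in Mo cells at 6 weeks (median 0.50) and 19 higher and 6 lower in PMN cells at 6 weeks (median 0.28). Under that centring 9.11% of all genes were higher and 13226 genes lower in Mo cells, and 8.55% were higher and 15662 genes lower in PMN cells.

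**Figure D2:**
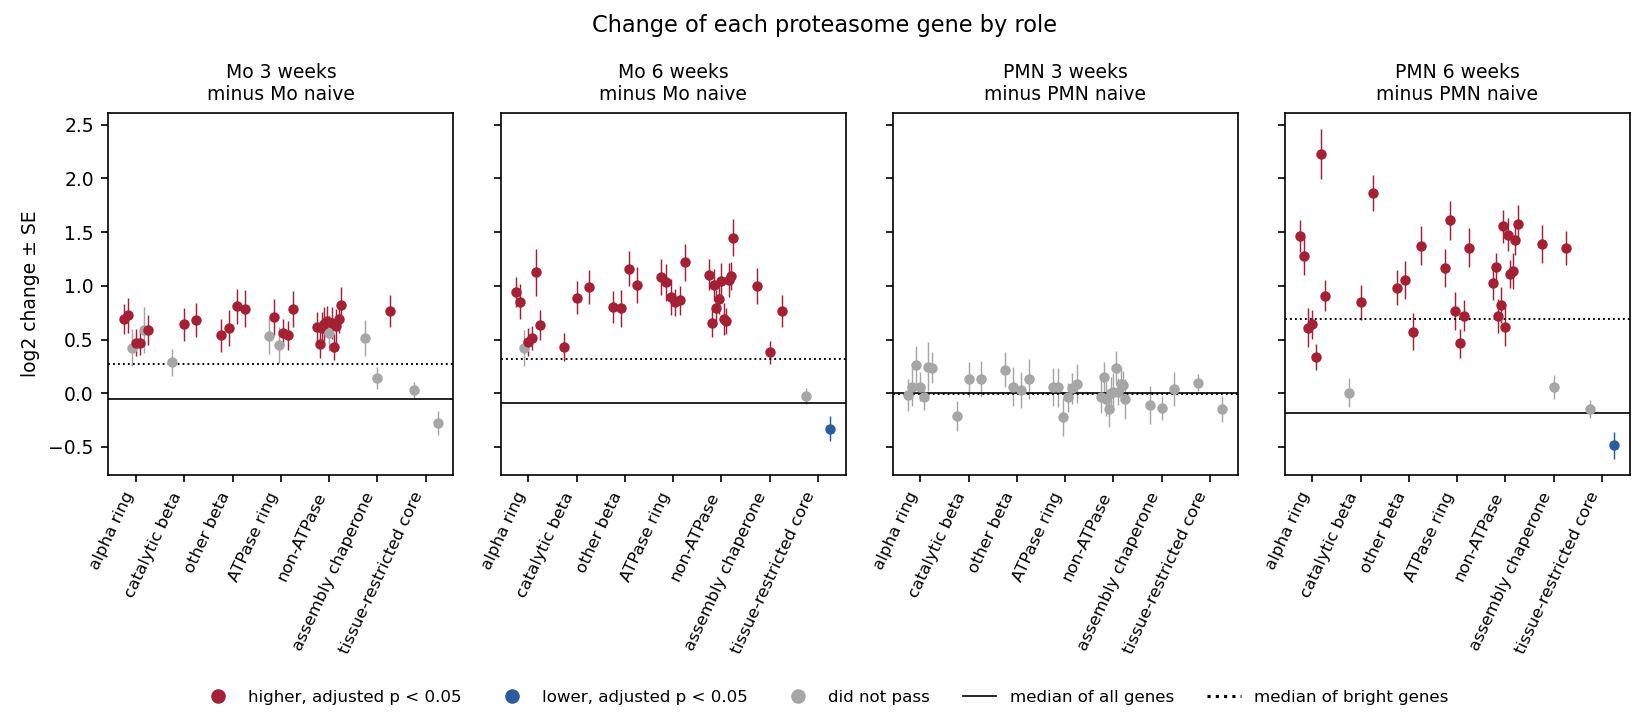
Change of each proteasome gene (points, with SE) by role, for 3 and 6 weeks minus naive in Mo and in PMN cells; red points rose, the blue point fell and grey points did not pass, the solid line is the median of all genes and the dotted line that of bright genes. In Mo cells at 6 weeks the 34 widely expressed genes lie from 0.38 to 1.45, all above the dotted line at 0.32; in PMN cells the points at 3 weeks cluster at 0 and those at 6 weeks spread from -0.49 to 2.22.

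The catalytic beta subunits cut the protein chain after different residues, and of the 3, all rose in Mo cells and 2 rose in PMN cells at 6 weeks. Psmb5 (chr14:54614120-54617995), which carries the chymotrypsin-like activity, lay at 8.47, 8.38 and 8.36 in naive Mo cells, 8.51, 8.75 and 8.81 at 3 weeks and 8.70, 8.84 and 8.95 at 6 weeks. In PMN cells Psmb5 lay at 8.07, 8.17, 8.30 and 7.97 when naive, 8.19 and 7.65 at 3 weeks and 8.05 and 8.22 at 6 weeks. The tumour-bearing Mo arrays were all above the naive ones, while the PMN groups overlapped throughout. Psmb5 rose 1.35-fold in Mo cells at 6 weeks (log2 change 0.43 ± 0.13, adjusted p = 0.015), and its change in PMN cells was 0.01 ± 0.14 (adjusted p = 0.97), with a 95% interval from -0.28 to 0.30. The Mo change did not pass with all arrays quantile normalized together, under bright gene centring or without Mo 6-week replicate 3.

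Psmb6 (chr11:70525324-70527858), the caspase-like subunit, lay at 8.73, 8.81 and 8.86 in naive Mo cells, 9.02, 9.68 and 9.64 at 3 weeks and 9.41, 9.72 and 9.95 at 6 weeks. In PMN cells it lay at 7.45, 7.31, 7.49 and 7.56 when naive, 7.53 and 7.64 at 3 weeks and 8.40 and 8.20 at 6 weeks. Every tumour-bearing Mo array exceeded every naive one, and in PMN cells the 6-week arrays alone stood clear of the rest. Psmb6 rose by 0.89 ± 0.15 in Mo cells (adjusted p = 0.000465) and by 0.85 ± 0.16 in PMN cells (adjusted p = 0.000422) at 6 weeks.

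Psmb7 (chr2:38588046-38643952), the trypsin-like subunit, lay at 9.55, 9.38 and 9.57 in naive Mo cells, 9.93, 10.25 and 10.35 at 3 weeks and 10.27, 10.45 and 10.74 at 6 weeks. In PMN cells Psmb7 lay at 7.90, 7.97, 7.37 and 7.55 when naive, 7.95 and 7.71 at 3 weeks and 9.67 and 9.46 at 6 weeks. Mo arrays were already above naive at 3 weeks, and PMN arrays were above naive at 6 weeks only, by more than any other catalytic subunit. It rose 1.98-fold in Mo (adjusted p = 0.000254) and 3.65-fold in PMN cells (adjusted p = 2.27e-07) at 6 weeks. The 3 catalytic subunits thus spanned the range from no measured change to one of the largest in PMN cells.

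**Figure D3:**
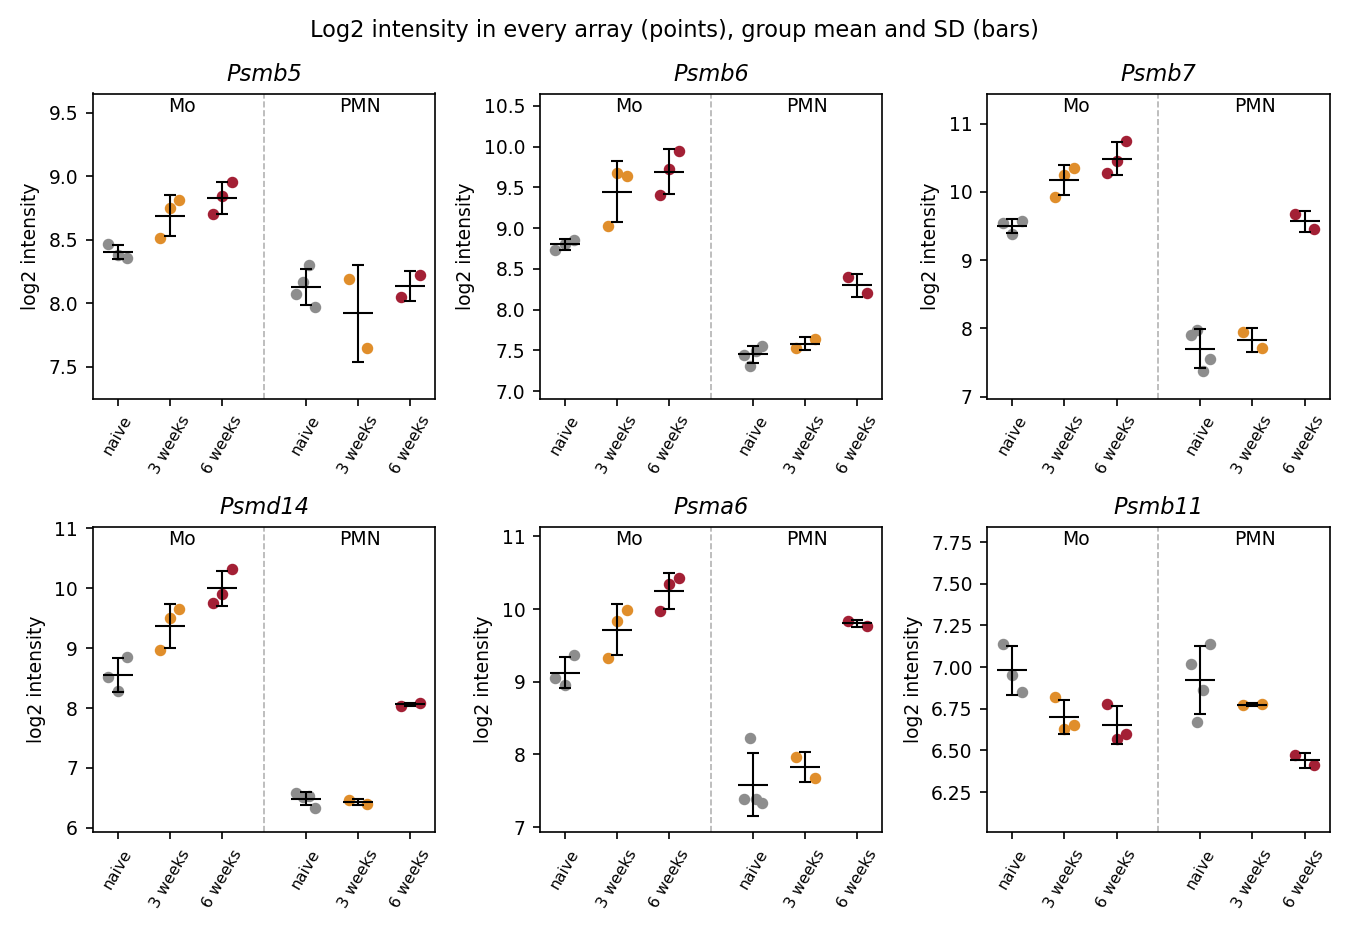
Log2 intensity of Psmb5, Psmb6, Psmb7, Psmd14, Psma6 and Psmb11 in every array (points) with the group mean and SD (bars), for naive, 3 and 6 weeks in Mo and in PMN cells. Psmb7 and Psmd14 step up at 3 and 6 weeks in Mo cells and at 6 weeks in PMN cells. Psma6 steps up at 6 weeks in both subsets, and its Mo arrays at 3 weeks overlap the naive ones. Psmb5 is level in PMN cells, and Psmb11 is lower at 6 weeks than in naive cells.

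Each standard catalytic subunit has an inducible counterpart that takes its place in the immunoproteasome, and the difference of the 2 log2 intensities was followed across stages. Its height depends on the probes and says nothing of relative amounts, so only its shift between groups is read. Psmb7 minus Psmb10 was 2.59 and 2.18 in PMN cells at 6 weeks, against 0.61, 0.64, 0.02 and 0.36 in naive PMN cells; the 6-week arrays lay well above all naive ones, a shift of 1.97. For Psmb6 minus Psmb9 the shift at 6 weeks was 0.81 in Mo and 0.40 in PMN cells, with no overlap in either subset. For Psmb5 minus Psmb8 it was 0.01 in Mo and -0.64 in PMN cells, and the PMN groups did not overlap. None of 18 two-sided exact permutation tests over arrays passed after adjustment (lowest adjusted p = 0.3), and the smallest p these designs allow is 0.1 for 3 arrays against 3 and 0.0667 for 2 against 4, and 0.333 for 2 against 2. The pairs were not tested against each other.

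**Figure D4:**
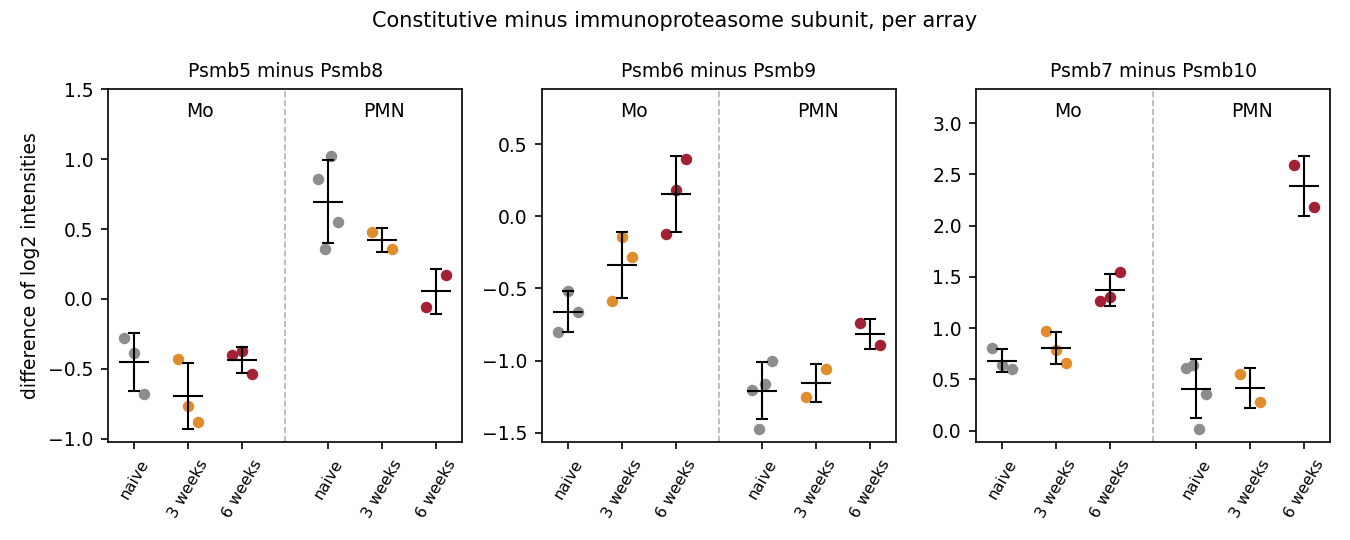
Log2 intensity of each standard catalytic subunit minus its inducible counterpart in every array (points), with group mean and SD (bars), by subset and stage. At 6 weeks Psmb7 minus Psmb10 reaches a mean of 2.38 in PMN cells, against 0.41 in naive PMN cells, while Psmb5 minus Psmb8 averages 0.06 against 0.70.

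The 7 alpha subunits form the outer rings that gate entry to the core. At 6 weeks 6 of them rose in Mo cells, with a median change of 0.64, and all 7 rose in PMN cells, with a median of 0.91. Psma6 (chr12:55384222-55418459) lay at 9.05, 8.96 and 9.37 in naive Mo cells, 9.32, 9.84 and 9.99 at 3 weeks and 9.97, 10.35 and 10.43 at 6 weeks. In PMN cells Psma6 lay at 7.38, 8.23, 7.38 and 7.33 when naive, 7.97 and 7.68 at 3 weeks and 9.84 and 9.77 at 6 weeks. Naive PMN replicate 2 stood apart from its group, and the 6-week PMN arrays were above it too. The change was 1.12 ± 0.22 in Mo cells (adjusted p = 0.00104) and 2.22 ± 0.23 in PMN cells (adjusted p = 8.34e-07), the largest of any proteasome gene, or 4.67-fold.

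Psma1 lay at 9.39, 9.36 and 9.74 in naive Mo cells, 9.83, 10.33 and 10.40 at 3 weeks and 10.35, 10.37 and 10.59 at 6 weeks. In PMN cells Psma1 lay at 7.85, 7.87, 7.74 and 7.59 when naive, 7.73 and 7.76 at 3 weeks and 9.22 and 9.24 at 6 weeks. Both 6-week groups were clear of their naive groups, and in PMN cells 3 weeks was not distinguishable from naive. It rose by 0.94 ± 0.14 in Mo (adjusted p = 0.000112) and by 1.46 ± 0.15 in PMN cells (adjusted p = 6.09e-07).

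Psma3 was the alpha subunit with the smallest change in Mo cells, at 8.99, 8.97 and 9.16 when naive, 9.18, 9.58 and 9.63 at 3 weeks and 9.34, 9.32 and 9.72 at 6 weeks. In PMN cells Psma3 lay at 7.70, 8.09, 8.09 and 7.45 when naive, 7.95 and 8.24 at 3 weeks and 8.57 and 8.31 at 6 weeks. The 6-week arrays of both subsets lay above all naive arrays, but close to them. The Mo change of 0.42 ± 0.17 just missed the threshold (adjusted p = 0.0522), and the PMN change of 0.61 ± 0.18 passed (adjusted p = 0.00777). It did not stay past the threshold without PMN 6-week replicate 1 or with all arrays quantile normalized together, and turned to -0.15 under bright gene centring. Psma3 is read by 3 features, with changes of 0.40 to 0.44 at 6 weeks in Mo cells and of 0.51 to 0.64 in PMN cells.

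The 4 beta subunits without a catalytic site all rose at 6 weeks in both subsets, with median changes of 0.90 in Mo and 1.02 in PMN cells. Psmb3 lay at 9.42, 9.23 and 9.51 in naive Mo cells, 9.77, 10.41 and 10.41 at 3 weeks and 10.22, 10.67 and 10.75 at 6 weeks. In PMN cells Psmb3 lay at 8.87, 8.79, 8.80 and 8.82 when naive, 8.71 and 8.99 at 3 weeks and 9.45 and 9.34 at 6 weeks. By the feature used, it was one of the genes with the larger change in Mo cells, where all tumour-bearing arrays were above naive ones, and one of those with a smaller change in PMN cells. A second feature of Psmb3, nearly as bright in Mo cells (mean 10.03 against 10.05), changed by 0.83 in Mo and 0.52 in PMN cells. For the feature used, the changes were 1.16 ± 0.16 (adjusted p = 6.5e-05) in Mo and 0.57 ± 0.17 (adjusted p = 0.00797) in PMN cells, and the difference between the subsets, 0.58 ± 0.23, did not pass (adjusted p = 0.1). The PMN change did not pass without PMN 6-week replicate 1, and was -0.18 under bright gene centring.

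Psmb4 lay at 8.92, 8.80 and 9.15 in naive Mo cells, 9.41, 9.86 and 9.96 at 3 weeks and 9.75, 10.02 and 10.12 at 6 weeks. In PMN cells Psmb4 lay at 7.58, 7.99, 7.40 and 7.44 when naive, 7.97 and 7.51 at 3 weeks and 8.95 and 9.01 at 6 weeks. The order was the reverse of that of Psmb3, with the larger step in PMN cells at 6 weeks (1.37 ± 0.18, adjusted p = 1.2e-05) and 1.01 ± 0.17 in Mo cells (adjusted p = 0.000407).

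Psmb2 had the smallest Mo change of this group, with 8.48, 8.63 and 9.02 when naive, 8.90, 9.41 and 9.64 at 3 weeks and 9.39, 9.40 and 9.70 at 6 weeks. In PMN cells it lay at 6.99, 7.19, 6.94 and 6.91 when naive, 7.21 and 6.94 at 3 weeks and 8.14 and 7.98 at 6 weeks. At 3 weeks its Mo arrays overlapped naive ones, because naive replicate 3 was high. Psmb2 rose by 0.79 ± 0.17 in Mo (adjusted p = 0.00228) and by 1.05 ± 0.18 in PMN cells (adjusted p = 0.000138) at 6 weeks.

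All 6 ATPases, the motor of the regulatory particle, rose at 6 weeks in both subsets, with a median change of 0.96 in each. Psmc6 lay at 8.07, 7.84 and 8.27 in naive Mo cells, 8.42, 8.97 and 9.15 at 3 weeks and 9.04, 9.20 and 9.60 at 6 weeks. In PMN cells Psmc6 lay at 6.47, 6.65, 6.63 and 6.44 when naive, 6.75 and 6.52 at 3 weeks and 7.88 and 7.93 at 6 weeks. Its 6-week arrays were clear of naive ones by a wide margin in both subsets, and it had the largest Mo change of the ring. It rose by 1.22 ± 0.17 in Mo (adjusted p = 6.91e-05) and by 1.36 ± 0.18 in PMN cells (adjusted p = 1.18e-05).

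Psmc1 lay at 8.74, 8.90 and 9.20 in naive Mo cells, 9.18, 9.55 and 9.71 at 3 weeks and 9.70, 10.02 and 10.37 at 6 weeks. In PMN cells Psmc1 lay at 7.27, 7.40, 7.30 and 7.12 when naive, 7.40 and 7.25 at 3 weeks and 8.57 and 8.30 at 6 weeks. The Mo arrays at 3 weeks overlapped the naive ones by a narrow margin, and those at 6 weeks did not. The changes at 6 weeks were 1.08 ± 0.17 in Mo (adjusted p = 0.000164) and 1.16 ± 0.18 in PMN cells (adjusted p = 4.46e-05).

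Psmc2 led the ring in PMN cells, with 7.06, 7.31, 6.87 and 6.88 when naive, 7.28 and 6.89 at 3 weeks and 8.76 and 8.52 at 6 weeks. In Mo cells Psmc2 lay at 8.75, 8.77 and 9.18 when naive, 9.28, 9.71 and 9.83 at 3 weeks and 9.70, 9.92 and 10.17 at 6 weeks. Naive and 6-week arrays did not overlap in either subset. Psmc2 rose by 1.03 ± 0.17 in Mo (adjusted p = 0.000318) and by 1.61 ± 0.18 in PMN cells (adjusted p = 2.09e-06).

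Psmc4 had the smallest change of the ring in both subsets, with 8.28, 8.54 and 8.57 in naive Mo cells, 8.74, 9.10 and 9.24 at 3 weeks and 9.12, 9.27 and 9.55 at 6 weeks. In PMN cells Psmc4 lay at 7.75, 7.75, 7.68 and 7.72 when naive, 7.69 and 7.68 at 3 weeks and 8.20 and 8.18 at 6 weeks. Its PMN arrays differed little within a group, and the 6-week arrays stood apart. Psmc4 rose by 0.85 ± 0.13 in Mo (adjusted p = 0.000122) and by 0.46 ± 0.13 in PMN cells (adjusted p = 0.0068). Under bright gene centring the PMN change was -0.29, past the threshold in the other direction.

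The 11 non-ATPase subunits belong to the base and lid, whose tasks include binding ubiquitin and removing it from the substrate. All 11 rose at 6 weeks in both subsets, with median changes of 1.01 in Mo and 1.14 in PMN cells. Psmd14 (chr2:61711694-61800376), the metalloprotease that cuts ubiquitin chains off the substrate, lay at 8.51, 8.29 and 8.85 in naive Mo cells, 8.96, 9.50 and 9.65 at 3 weeks and 9.76, 9.91 and 10.32 at 6 weeks. In PMN cells Psmd14 lay at 6.58, 6.52, 6.53 and 6.33 when naive, 6.47 and 6.40 at 3 weeks and 8.04 and 8.08 at 6 weeks. The 3 Mo stages did not overlap, and in PMN cells the stages before 6 weeks did. It had the largest Mo change of the set, 1.45 ± 0.17 or 2.73-fold (adjusted p = 1.51e-05), and rose by 1.57 ± 0.18 in PMN cells (adjusted p = 2.93e-06). All 4 naive PMN values were below 7.06, the 95th percentile of the unused receptor genes, so no linear fold is given there.

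Psmd1, the large scaffold of the base, lay at 8.83, 9.05 and 9.06 in naive Mo cells, 9.27, 9.71 and 9.79 at 3 weeks and 9.77, 10.07 and 10.40 at 6 weeks. In PMN cells Psmd1 lay at 7.42, 7.51, 7.54 and 7.52 when naive, 7.48 and 7.45 at 3 weeks and 8.59 and 8.45 at 6 weeks. The Mo arrays at 6 weeks overlapped those at 3 weeks and not the naive ones. Psmd1 rose by 1.10 ± 0.14 in Mo (adjusted p = 3.8e-05) and by 1.02 ± 0.15 in PMN cells (adjusted p = 3.94e-05). Psmd14 and Psmd1 were the genes that rose further between 3 and 6 weeks in Mo cells, by 0.63 ± 0.17 (adjusted p = 0.0309) and 0.49 ± 0.14 (adjusted p = 0.0486). Of 27 fits with another setting or 1 array left out, Psmd14 passed in 21 and Psmd1 in 8.

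Psmd2, the other scaffold of the base, had the smallest Mo change of this group, with 10, 10.01 and 10.20 when naive, 10.29, 10.62 and 10.68 at 3 weeks and 10.54, 10.67 and 10.96 at 6 weeks. In PMN cells Psmd2 lay at 8.19, 8.15, 7.82 and 7.92 when naive, 8.20 and 8.14 at 3 weeks and 9.28 and 9.10 at 6 weeks. Neither 6-week group overlapped its naive group. It rose by 0.65 ± 0.13 in Mo (adjusted p = 0.00144) and by 1.17 ± 0.14 in PMN cells (adjusted p = 3.79e-06), and a second feature of Psmd2 changed by 0.49 and 0.77.

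Psmd8, a lid subunit, lay at 9.43, 9.27 and 9.58 in naive Mo cells, 9.78, 10.19 and 10.27 at 3 weeks and 10.07, 10.11 and 10.17 at 6 weeks. In PMN cells Psmd8 lay at 7.55, 8.20, 7.71 and 7.83 when naive, 8.14 and 7.98 at 3 weeks and 9.31 and 9.28 at 6 weeks. The Mo arrays at 3 and 6 weeks overlapped and both were above naive, and in PMN cells only the 6-week arrays were. Psmd8 rose by 0.69 ± 0.15 in Mo (adjusted p = 0.00227) and by 1.48 ± 0.16 in PMN cells (adjusted p = 1.13e-06) at 6 weeks.

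The 3 assembly chaperones hold ATPases in place while the regulatory particle is built and are not part of the finished complex. Psmd5 lay at 7.81, 7.63 and 7.94 in naive Mo cells, 7.83, 8.46 and 8.63 at 3 weeks and 8.59, 8.77 and 9.01 at 6 weeks. In PMN cells Psmd5 lay at 6.48, 6.70, 6.46 and 6.47 when naive, 6.44 and 6.39 at 3 weeks and 8.07 and 7.75 at 6 weeks. Mo replicate 1 at 3 weeks was within the naive range, and the 6-week arrays of both subsets were far above naive. The changes at 6 weeks were 1.00 ± 0.17 in Mo (adjusted p = 0.000336) and 1.38 ± 0.18 in PMN cells (adjusted p = 7.88e-06).

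Psmd10 lay at 7.79, 7.90 and 8.11 in naive Mo cells, 8.29, 8.75 and 9.05 at 3 weeks and 8.63, 8.66 and 8.81 at 6 weeks. In PMN cells Psmd10 lay at 7.39, 7.51, 7.36 and 7.16 when naive, 7.38 and 7.41 at 3 weeks and 8.78 and 8.63 at 6 weeks. In Mo cells 3 and 6 weeks overlapped and both were above naive. It rose by 0.76 ± 0.15 in Mo (adjusted p = 0.0011) and by 1.35 ± 0.16 in PMN cells (adjusted p = 2.98e-06) at 6 weeks.

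Psmd9 moved least, with 7.81, 7.86 and 8.03 in naive Mo cells, 7.89, 8.12 and 8.12 at 3 weeks and 8.14, 8.34 and 8.35 at 6 weeks. In PMN cells Psmd9 lay at 7.14, 7.01, 7.21 and 6.99 when naive, 7.07 and 6.82 at 3 weeks and 7.23 and 7.07 at 6 weeks. The PMN groups overlapped, and only the Mo arrays at 6 weeks cleared the naive ones. Its Mo change of 0.38 ± 0.11 passed (adjusted p = 0.0102), but not after joint quantile normalization or bright gene centring, and its PMN change was 0.06 ± 0.11 (adjusted p = 0.64; 95% interval from -0.17 to 0.30). Psmd9 thus had the smallest Mo change of the 34 widely expressed genes.

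Psmb11, the catalytic subunit of the thymus proteasome, and Psma8, an alpha subunit of the testis, are not known to be used by splenic myeloid cells. Psmb11 (chr14:54625310-54629556) lay at 7.14, 6.95 and 6.85 in naive Mo cells, 6.82, 6.63 and 6.65 at 3 weeks and 6.78, 6.57 and 6.60 at 6 weeks. In PMN cells Psmb11 lay at 7.02, 6.67, 6.86 and 7.14 when naive, 6.77 and 6.78 at 3 weeks and 6.47 and 6.41 at 6 weeks. All 6-week arrays were below all naive ones in both subsets. Psmb11 was the gene that fell, by 0.33 ± 0.11 on the log2 scale in Mo (adjusted p = 0.0294) and by 0.49 ± 0.12 in PMN cells (adjusted p = 0.00282). Its means in naive cells, 6.98 in Mo and 6.92 in PMN cells, were near the 95th percentile of the Olfr and Vmn genes (6.80 in Mo and 7.06 in PMN cells), whose own median change at 6 weeks was -0.325 in Mo and -0.362 in PMN cells; 49.7% and 57.3% of those 1194 genes fell. The Mo fall did not pass without Mo naive replicate 1 or 2, without Mo 6-week replicate 2 or 3, with median centring or with joint quantile normalization. Psma8 stayed between 5.8 and 5.96 over the Mo arrays and between 5.43 and 5.72 over the PMN arrays. It fell in PMN cells at 6 weeks against 3 weeks (-0.25 ± 0.10, adjusted p = 0.0362), as did Psmb11 (-0.34 ± 0.14, adjusted p = 0.049). In that comparison the Olfr and Vmn genes had a median change of -0.339, and 42.1% of them fell. Neither of these 2 calls held with median centring or with joint quantile normalization. Psma8 was below that percentile in every array, and Psmb11 was above it in all 3 naive Mo arrays.

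The arrays of a Mo group differed from each other in the same way for nearly every subunit. Replicate 1 at 3 weeks was the lowest of its group for all 34 widely expressed genes, naive replicate 3 the highest of its group for 33, and 6-week replicate 3 the highest for 34. Relative to the naive mean, the median of the 34 genes was 0.25 in 3-week replicate 1, 0.72 in replicate 2 and 0.84 in replicate 3. The medians were 0.71, 0.85 and 1.13 in the 6-week arrays. The bright genes of these arrays ran in the same order, with medians of 8.77, 9.10 and 9.18 at 3 weeks and 8.95, 9.13 and 9.19 at 6 weeks; their part in the result was not tested. In PMN cells the 2 arrays at 6 weeks had medians of 1.13 and 1.02 and those at 3 weeks 0.09 and -0.02.

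At 3 weeks the Mo calls depended on single arrays. Of the 26 genes that rose, Psmd10 (0.77 ± 0.15, adjusted p = 0.0191), Psmb3 (0.81 ± 0.16, adjusted p = 0.0204) and Psmd14 (0.82 ± 0.17, adjusted p = 0.0219) are examples. All 34 widely expressed genes were above 0, and 27 had every 3-week array above every naive one, against 10.5% of all genes. None of the 26 calls held without Mo naive replicate 1, without Mo naive replicate 2, without Mo 3-week replicate 2 or without Mo 3-week replicate 3, and none when the Mo arrays were fitted alone. Calls over all genes went with them: 13 to 15 of the 19938 genes were higher under those 4 omissions, against 1036 with all arrays. Without Mo 3-week replicate 1, 34 proteasome genes and 22.7% of all genes rose. The median change of the proteasome genes stayed between 0.47 and 0.78 whichever array was left out.

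The 6-week changes of the 34 genes in the subsets correlated across genes (Pearson r = 0.58, Spearman rho = 0.47, n = 34 genes, which share arrays within each subset and are not independent). The Mo change minus the PMN change passed for 4 genes, all with the smaller change in Mo cells, where 11% of all genes and 43.4% of genes bright in both subsets were lower, and 6.47% of all genes were higher. These were Psma6 (-1.10 ± 0.32, adjusted p = 0.0226), Psmb7 (-0.88 ± 0.23, adjusted p = 0.014), Psmd8 (-0.79 ± 0.22, adjusted p = 0.0174) and Psmd6 (-0.67 ± 0.21, adjusted p = 0.0311). None of the 4 passed without PMN 6-week replicate 1, and the count was 8 without Mo 3-week replicate 1. Psmb5 (0.42 ± 0.19, adjusted p = 0.145) and Psmb3 had the larger change in Mo cells without passing.

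**Figure D5:**
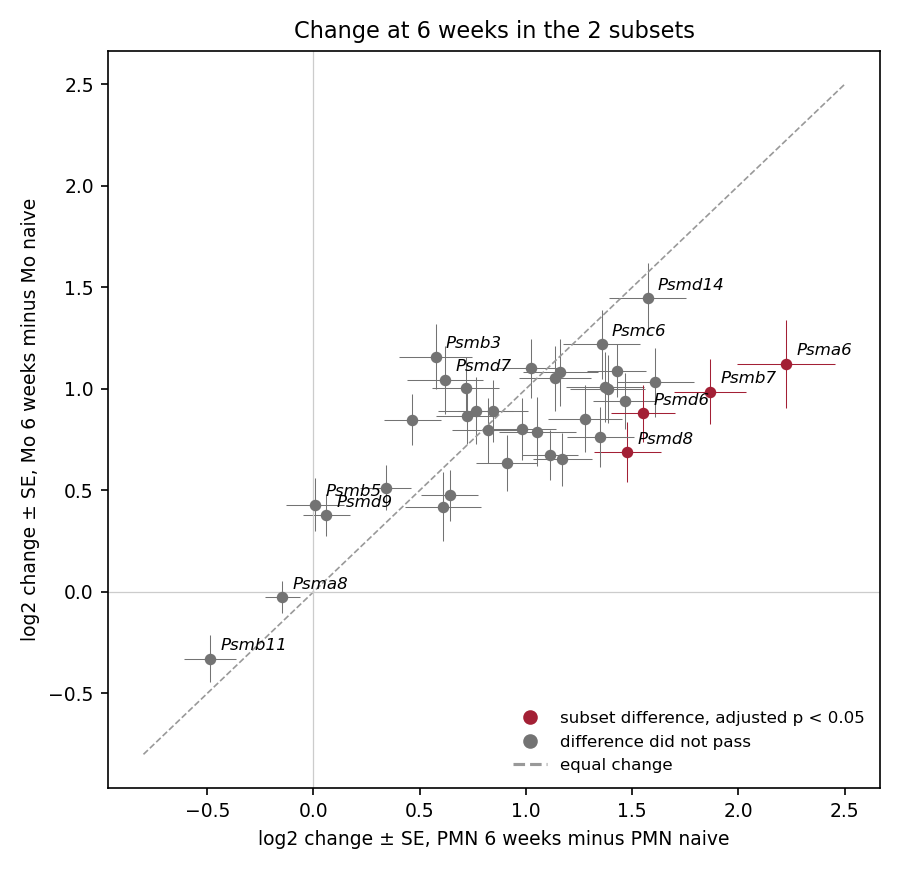
Change at 6 weeks in Mo cells (vertical axis, log2 with SE) against that in PMN cells (horizontal axis, log2 with SE) for the 36 proteasome genes; the dashed line marks equal change and red points passed the test of the difference. Psma6, Psmb7, Psmd6 and Psmd8 lie below the line, and Psmb5 and Psmd9 lie near 0 on the PMN axis and at 0.43 and 0.38 on the Mo axis.

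Between 3 and 6 weeks the Mo change was below the PMN change for 33 of the 34 genes and passed for 19, where 17.3% of all genes and 62.1% of genes bright in both subsets were lower, and 11.9% of all genes were higher. The 19 are no larger a share of the 34 than the bright genes show, but only 10 of the 34 were bright in PMN cells. No share was taken in this comparison for the brightness range of the other 24. Psma6 (-1.44 ± 0.34, adjusted p = 0.00508), Psmb7 (-1.43 ± 0.25, adjusted p = 0.000553), Psmd6 (-1.34 ± 0.22, adjusted p = 0.00033) and Psmd10 (-1.31 ± 0.23, adjusted p = 0.000604) differed most. Under bright gene centring this comparison gave 7 genes higher and 7 lower, with a median of 0.0606, where 71.8% of all genes were higher and 1202 genes lower. For the change from naive to 3 weeks, all 34 genes had the larger change in Mo cells, by 0.55 in the median. In limma none of them passed (background 0.00502% of all genes higher and 0% lower). An unadjusted p below 0.05 was reached by 26 proteasome genes and by 3312 of all 19938 genes.

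Genes that work with the proteasome moved in part with it. The lists were chosen with earlier results of these data known. As background for their counts at 6 weeks, 21.8% of all genes and 49.9% of bright genes rose in Mo cells. In PMN cells the shares were 25.5% and 71.7%. Of the 5 inducible and PA28 genes, none passed in Mo cells at 6 weeks (Psmb8 changed by 0.42, adjusted p = 0.0719), and 4 rose in PMN cells, led by the cap subunit Psme1 (1.20 ± 0.15, adjusted p = 5.11e-06), with Psmb10 at -0.11. Of the other caps and inhibitor, Psme3 and Psmf1 rose in Mo and all 3 rose in PMN cells, with Psme4, the PA200 cap, at 0.18 and 1.25. Of 5 core assembly factors, 4 rose in Mo cells and 1 in PMN cells. Pomp, which matures the beta rings, rose by 0.36 ± 0.13 in Mo and by 1.62 ± 0.14 in PMN cells, and the difference passed (-1.26 ± 0.19, adjusted p = 0.000256). Psmg1, which pairs alpha subunits, went the other way, with 1.01 in Mo and 0.07 in PMN cells (difference 0.94 ± 0.22, adjusted p = 0.00636). Its PMN means, 6.94 when naive and 7.01 at 6 weeks, were below 7.06, the 95th percentile of the unused receptor genes.

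Sem1, a small lid subunit and the 1 of 3 listed further subunits with a feature of its own, rose by 0.82 ± 0.25 in Mo (adjusted p = 0.0145) and by 2.68 ± 0.26 in PMN cells (adjusted p = 4.58e-07), the PMN change being larger than that of any of the 36 genes. Its naive PMN mean was 7.05, close to 7.06, the 95th percentile of the unused receptor genes in PMN cells. Of 9 measured proteasome-associated genes, 7 rose in Mo and 8 in PMN cells, where 21.8% and 25.5% of all genes rose. The deubiquitinases Uchl5 (1.82 and 1.09) and Usp14 (1.39 and 1.00) were among them. The PMN means of Usp14, 5.97 when naive and 6.97 at 6 weeks, were both below that percentile. Of 6 measured genes of p97, which extracts proteins for degradation, and its cofactors, 5 rose in each subset, with Vcp at 0.57 ± 0.10 in Mo and 1.10 ± 0.11 in PMN cells. Uba6, the ubiquitin-activating enzyme measured, rose by 0.49 in Mo and 1.25 in PMN cells, where its naive mean of 6.60 was below that percentile too.

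The 10 measured genes of proteasome transcription did not move as a block: 3 rose and 1 fell in Mo cells, and 5 rose and 1 fell in PMN cells. Of all genes, 21.8% rose and 24.4% fell in Mo cells, and 25.5% rose and 40% fell in PMN cells. The median bright gene changed by 0.32 in Mo and 0.69 in PMN cells. Mafg, a partner of NRF1 and NRF2, rose by 0.64 ± 0.12 in Mo (adjusted p = 0.000694) and by 1.06 ± 0.12 in PMN cells (adjusted p = 3.05e-06). Nfe2l2 changed by 0.06 ± 0.13 in Mo cells (adjusted p = 0.69) and rose by 0.86 ± 0.14 in PMN cells (adjusted p = 9.15e-05), and the difference passed (-0.80 ± 0.19, adjusted p = 0.00844). Nfe2l1, named for its role and outside the rule of largest changes, changed by 0.00 ± 0.08 in Mo (adjusted p = 0.98) and rose by 0.44 ± 0.09 in PMN cells (adjusted p = 0.000469). Nfe2l3 fell in both, by 0.46 and 0.41 on the log2 scale. Its naive means, 6.65 in Mo and 6.69 in PMN cells, were below the 95th percentile of the unused receptor genes (6.80 and 7.06).

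Markers of other programmes changed between the same groups, and in bulk samples fewer cells of a type and less RNA per cell cannot be told apart. At 6 weeks 21.8% of all genes rose and 24.4% fell in Mo cells, and 25.5% rose and 40% fell in PMN cells. All 8 proliferation markers rose at 6 weeks in both subsets, with summed intensities of 7264 to 14160 in Mo cells at 6 weeks against 848.5 to 1785 in naive Mo cells, and of 4720 to 5815 against 823.3 to 877.1 in PMN cells. None of the 8 passed in Mo cells at 3 weeks, where the sum was 1204 to 1804. All 4 granule genes of myeloid progenitors rose in Mo cells at 6 weeks (sum 4391 to 11630, against 369.5 to 532.5 in naive Mo cells). So did 6 of 8 neutrophil markers (8159 to 15520, against 2064 to 2614), and 1, Csf3r, fell by 0.37. S100a8, S100a9, Mmp8 and Ltf were above naive in every Mo array at 6 weeks. Ly6g (6.56, 8.95 and 6.43) and Retnlg (5.55, 8.07 and 5.70) were high mainly in replicate 2 of that group. In PMN cells 6 of the 8 neutrophil markers rose and 1 fell at 6 weeks (54380 to 58850, against 28060 to 31800). Of the 4 measured monocyte markers, 3 fell in Mo cells at 6 weeks (sum 8200 to 10080, against 11440 to 13000 in naive Mo cells), with Cx3cr1 at 10, 9 and 9.24 at 6 weeks against 10.97, 11.10 and 11.07 in naive Mo cells. T and NK cell markers fell in Mo cells for 5 of 6 genes (315.8 to 384.2, against 649.9 to 983.3). The 4 measured B cell markers summed to 415 to 556.3 in Mo cells at 6 weeks against 608.4 to 1227 in naive ones, and to 629.4 to 642.9 in PMN cells at 6 weeks against 1962 to 2164. Their part in the changes of the proteasome genes was not tested.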

How the data were processed

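Sorted Mo and PMN spleen cells were measured on 17 Affymetrix Mouse Gene 1.0 ST arrays in 6 groups. The authors deposited intensity values processed with RMA, per the submitters' processing notes; version, settings and whether all arrays were normalized together are not given in the sources used here. The deposited values were linear, from 9.76 to 32095, and were put on the log2 scale, although log2 values had been thought possible. Median counts of identical values between 2 arrays were 942.5 within Mo, 251 within PMN and 146 between the subsets.

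Of 35557 features, 21789 named 1 gene, 1621 several and 12147 none; features with 1 symbol gave 19938 genes, and the brightest feature was used for the 999 genes with several. Feature positions are not given in the sources used here, so near-identical gene copies cannot be told apart; gene coordinates are RefSeq's on GRCm38.p6. One limma model (limma 3.58.1, R 4.3.3) with 6 group means and no block was fitted to all arrays, with two-sided moderated tests and Benjamini-Hochberg adjustment over all genes, and was tested on simulated data. The number of arrays limits the precision.

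Genes with values in every array were the catalytic subunits; in each role group the 2 largest and the smallest absolute Mo changes at 6 weeks and the largest PMN change; the 3 largest subset differences; and genes passing against the majority. Of each further list, up to 4 genes with the largest changes could be named; Psmb10, Psme4, Vcp, Usp14 and Nfe2l1 were, in some comparisons, named after their values were seen. The members, gene lists and tests were chosen with earlier results of these data known. The brightness ranges and bright gene centring were chosen after seeing the data. Alternatives were median centring, joint quantile normalization, a floor of 64, leaving out genes under a mean log2 of 6, the mean of features, each subset alone, array weights, a replicate block, an intensity trend and leaving out each array.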

Additional observations from a re-analysis of the deposited data

Results flagged for a closer look

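Naive PMN replicate 2 stood apart from the other naive PMN arrays for 2 genes by Dixon's test, which flags about 1 in 20 groups by chance. Psma6 was 8.23 there, against 7.33 to 7.38 in the others, and Psmd5 was 6.70, against 6.46 to 6.48.

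The Mo change minus the PMN change passed limma's test of the difference for 4 genes at 6 weeks against naive, with log2 differences of -1.10 for Psma6, -0.88 for Psmb7, -0.67 for Psmd6 and -0.79 for Psmd8. In that comparison 11% of all genes and 43.4% of genes bright in both subsets were lower. The difference passed for 19 genes at 6 weeks against 3 weeks, where 17.3% of all genes and 62.1% of genes bright in both subsets were lower. In the alpha ring the differences were -1.23 for Psma1, -1.09 for Psma2, -0.57 for Psma4, -1.44 for Psma6 and -0.62 for Psma7. In the beta ring they were -0.81 for Psmb2, -1.02 for Psmb4 and -1.43 for Psmb7, and in the ATPase ring -1.23 for Psmc2 and -0.83 for Psmc6. Among the non-ATPase subunits they were -0.82 for Psmd2, -0.82 for Psmd4, -1.34 for Psmd6, -1.21 for Psmd8, -0.86 for Psmd11, -0.95 for Psmd13 and -0.996 for Psmd14. The chaperones Psmd5 and Psmd10 differed by -1.01 and -1.31.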

How the results depend on the processing

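Of the 34 widely expressed genes, 25 had PMN means above the 95th percentile of unused genes, and 8 of the other 9 exceeded it at 6 weeks but none in naive cells. Over single genes, comparisons and alternatives, 7975 values stayed on their side of the threshold, 404 lost it and 234 gained it. A further 18 values had passed and changed sign. Sign changes of values that had not passed were not counted apart. The cause was not tested for any setting. The 26 Mo calls at 3 weeks became 7 with joint quantile normalization, 1 with the floor and 0 with Mo fitted alone. The 2 Mo calls between 6 and 3 weeks became 0 with median centring, the floor or Mo alone, 1 with an intensity trend, 4 with joint quantile normalization or bright gene centring and 15 with array weights. The 4 subset differences at 6 weeks against naive became 0 with median centring, 2 with the floor, 10 with joint quantile normalization or bright gene centring and 14 with array weights. These counts hold both directions. Under bright gene centring Psmb7, Psmd6 and Psmd8 no longer passed, and 25.3% of all genes were higher and 1063 genes lower. Under joint quantile normalization 8.49% of all genes were higher and 2452 genes lower. Array weights gave 32 subset differences at 3 weeks against naive and 30 at 6 weeks against 3 weeks, where it called 42.9% and 58.6% of all genes, against 0.00502% and 29.2% without weights. With median centring the PMN median at 6 weeks against 3 weeks was 1.22.

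With bright gene centring the median change was 0.50 (Mo) and 0.28 (PMN) at 6 weeks against naive, 0.29 in Mo at 3 weeks against naive and 0.25 in PMN at 6 weeks against 3 weeks. The median subset difference was 0.23 at 6 weeks against naive, 0.24 at 3 weeks against naive and 0.0606, the opposite sign, at 6 weeks against 3 weeks. Among genes that had passed without this centring, signs also turned in PMN at 6 weeks against naive for Psma3 (-0.15), Psma4 (-0.11), Psma5 (-0.42), Psmb3 (-0.18), Psmc4 (-0.29), Psmc5 (-0.0359), Psmd3 (-0.0393) and Psmd7 (-0.14). Among such genes at 6 weeks against 3 weeks, signs turned in PMN for Psma4 (-0.18), Psma5 (-0.39), Psma7 (-0.0879), Psmb3 (-0.22), Psmb6 (-0.0456), Psmc4 (-0.26), Psmc5 (-0.0858) and Psmd7 (-0.15), and in the subset difference for Psma4 (0.12) and Psma7 (0.0626).

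Leaving out 1 array gave 31 to 35 calls (median 0.75 to 0.97) in Mo at 6 weeks against naive, 0 to 34 (0.47 to 0.78) at 3 weeks against naive and 0 to 10 (0.10 to 0.35) at 6 weeks against 3 weeks. In PMN it gave 29 to 33 (0.99 to 1.11), 0 to 0 (-0.02 to 0.07) and 27 to 33 (0.93 to 1.07). The subset differences gave 0 to 8 (-0.28 to -0.06) at 6 weeks against naive, 0 to 26 (0.44 to 0.73) at 3 weeks against naive and 13 to 28 (-0.80 to -0.52) at 6 weeks against 3 weeks. The highest or lowest counts came without Mo 3-week replicate 1, Mo 6-week replicate 1 or 3, PMN 6-week replicate 1, PMN 3-week replicate 2 or Mo naive replicate 1.

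The replicate numbers were not taken to pair the arrays, because the labels do not say that a number marks a shared pool or day. Deviations of same-numbered arrays correlated at 0.284 to 0.628 in 7 of 9 Mo pairs and at -0.09 and -0.04 in the others, both of replicate 2. In the 6 PMN pairs they correlated at -0.461 to 0.021. Groups of 2 arrays deviate as mirror images, so the PMN pairs between 3 and 6 weeks share 1 value, -0.0208. Over both subsets 7 of 15 arrays correlated best with their own number. With the replicate number as a block, the Mo count between 6 and 3 weeks was 11 (6.97% of all genes higher), the subset difference at 3 weeks against naive 11 (4.11% higher), and the Mo count at 3 weeks against naive 33 (16.4% higher). Without the block those shares were 4.38%, 0.00502% and 5.2%.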
